A study of Mus musculus with 8 samples.

Results

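Epidermal barrier lipid genes were examined in mouse cheek skin as a set of 8 genes out of 18901 genes in the deposited table. The set was chosen by symbol and not by how the genes moved, but with earlier results of these data known. They were Elovl4, Cers3, Pnpla1, Abca12, Alox12b, Aloxe3, Smpd1 and Asprv1, and all 8 passed the filter on low counts that left 17124 genes for testing. RNA was sequenced from the cheeks of 4 TBX20fl/fl;K14-Cre mice (knockout mice) and 4 TBX20fl/fl mice (control mice), all female and 7 weeks old. Both groups carried the floxed Tbx20 alleles, and the knockout mice also carried Cre recombinase under the keratin 14 (K14) promoter, which is active in basal keratinocytes and in the epithelium of hair follicles and glands. The left cheek of every mouse had been shaved and injected intradermally with 10 μg of brain natriuretic peptide (BNP), an itch-inducing peptide, so no uninjected skin enters the comparison. Tissue was taken 5 hours after a behavioural recording of 30 min. The question was whether loss of TBX20, a T-box transcription factor, in K14-expressing cells was accompanied by a change in these genes after BNP. Nothing in the labels ties the mice to separate litters or days, so the p-values measure the spread between these 8 animals.

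The outer barrier of the skin is built by keratinocytes in the upper epidermis. These cells make ceramides with ultra-long acyl chains that carry a terminal hydroxyl group, add a linoleate to them, glucosylate them and load them into lamellar granules. After secretion, lipoxygenases oxidise the linoleate, and the ceramide is then attached to the protein envelope of the corneocyte, while other ceramides fill the space between the cells. Inherited loss of several of these enzymes causes ichthyosis. Asprv1 stands apart by function, since it encodes a retroviral-like aspartic protease that cleaves profilaggrin and is not a lipid enzyme.

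Because the deleted factor binds T-box elements, the 250 bases before the start that RefSeq's promoter table gives for each gene were searched on both strands for the T-box core AGGTGT and the longer T-box half-site AGGTGTGA, which contains the core. RefSeq upstream sequences (GRCm38.p6) matched 7 of the 8 genes (not Aloxe3). The core was present in 4 of these 7 sequences, and in 11.8% of 32851 sequences of the same length over all genes in the reference table. Elovl4 held it 131 bases and Pnpla1 190 bases before that start, which for Pnpla1 and Cers3 lies inside the gene limits given below. The upstream sequences of Asprv1 and Abca12 are shown because each held the core at 2 places, and because in log2 CPM, without a length correction, these were the genes in which control replicate 2 departed furthest from the other mice, in opposite directions. Both are written 5′ to 3′ on the strand of the gene with the core in capitals, as AGGTGT or as its reverse complement ACACCT. The Asprv1 sequence is chr6:86627924-86628173 on the plus strand and the Abca12 sequence is chr1:71414911-71415160 on the minus strand.
Asprv1: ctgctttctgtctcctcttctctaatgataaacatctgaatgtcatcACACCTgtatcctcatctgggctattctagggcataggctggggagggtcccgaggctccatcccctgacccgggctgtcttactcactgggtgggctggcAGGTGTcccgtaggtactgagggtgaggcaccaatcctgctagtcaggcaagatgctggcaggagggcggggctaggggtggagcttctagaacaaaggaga
Abca12: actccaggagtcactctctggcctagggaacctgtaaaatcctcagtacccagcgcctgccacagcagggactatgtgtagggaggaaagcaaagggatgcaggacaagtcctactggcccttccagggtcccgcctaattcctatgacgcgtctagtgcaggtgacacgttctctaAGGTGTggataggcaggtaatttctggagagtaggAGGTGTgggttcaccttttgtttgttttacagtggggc
In Asprv1 the core lay 97 bases before the start and, on the opposite strand, 198 bases before it, where it formed part of a full half-site, TCACACCT as read on the gene's strand. The half-site was found in none of the other 6 sequences and in 1.12% of all. The authors' TBX20 motif AGGTGTG, the core with a further G, was not searched over all sequences. In the printed sequences it can be read at both Abca12 places and at the Asprv1 half-site. In Abca12 the core lay 33 and 68 bases before the start. The AP-1 motif TGANTCA and the TATA box TATAAA were searched in the same way and were found in 0 of the 7 sequences, against 6.75% and 12.4% of all. These are matches of letters and carry no measurement of binding.

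The total count was 16056282 to 19880654 per mouse, and a floor of 3 counts equals 0.151 to 0.187 CPM (counts scaled to the total of the library), which covers counting error only. Tbx20 itself had 0 to 3 counts in every mouse of both groups, at or under that floor, so it does not check the labels. The 12 epidermal markers were detected, among them Krt14 of the basal layer with a mean of 1214 FPKM (fragments per kilobase of transcript, scaled to the mapped reads, a level per length) and Krt10 of the suprabasal layers with 1132 FPKM. Muscle, fat, sebaceous and fibroblast markers were also present, so the tissue was whole cheek skin with underlying layers, and fewer cells of a type cannot be told apart from less RNA per cell. The mean log2 CPM of the epidermal markers was 8.67 to 9.03 in knockout and 8.72 to 9.15 in control mice, overlapping ranges. The mean over the 6 markers of the hair inner root sheath was 8.78 in knockout replicate 2 and 2.05 to 5.85 in the other 7 mice. The mean over 6 neutrophil markers did not overlap, at 2.90 to 3.83 in knockout and 4.01 to 5.14 in control mice. With each mouse's trend with transcript length removed it overlapped, at 3.07 to 4.08 and 3.96 to 4.86, and its part in any result below was not tested.

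No difference between genotypes was resolved in any of the 8 barrier genes. Of these, 5 had a higher and 3 a lower fitted level in knockout mice, and the ranges of the genotypes overlapped in every gene. With edgeR's quasi-likelihood test and Benjamini-Hochberg adjustment, 0 of 8 passed an adjusted p of 0.05, and adjusted p-values ran from 0.500 for Asprv1 to 0.862 for Elovl4. The background was equally bare, as 0% of the 17124 genes passed (smallest adjusted p 0.498). At an unadjusted p under 0.05 there were 0 of 8 barrier genes against 8.36% of all genes. The FPKM ranges of the genotypes overlapped in all 8, against 7.37% of 15970 genes whose ranges did not overlap. DESeq2 called 10 of all genes and none of the 8, and limma on log2(FPKM + 1) called 0 genes (smallest adjusted p 0.457).

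The fitted changes were mostly small, and their intervals left room for larger ones. The log2 fold changes (knockout over control) spanned -0.44 for Asprv1 to 0.22 for Pnpla1. Their median absolute value was 0.14, compared with 0.30 over all genes tested and 0.28 over the 8242 genes expressed at least as highly as the lowest of the 8. The median signed change was 0.12, against 0.03 for all genes. The 95% intervals of all 8 lay between 0.486-fold (the lower limit of Asprv1) and 1.63-fold (the upper limit of Abca12). Differences inside those limits were not resolved with 4 mice per group.

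**Figure D1:**
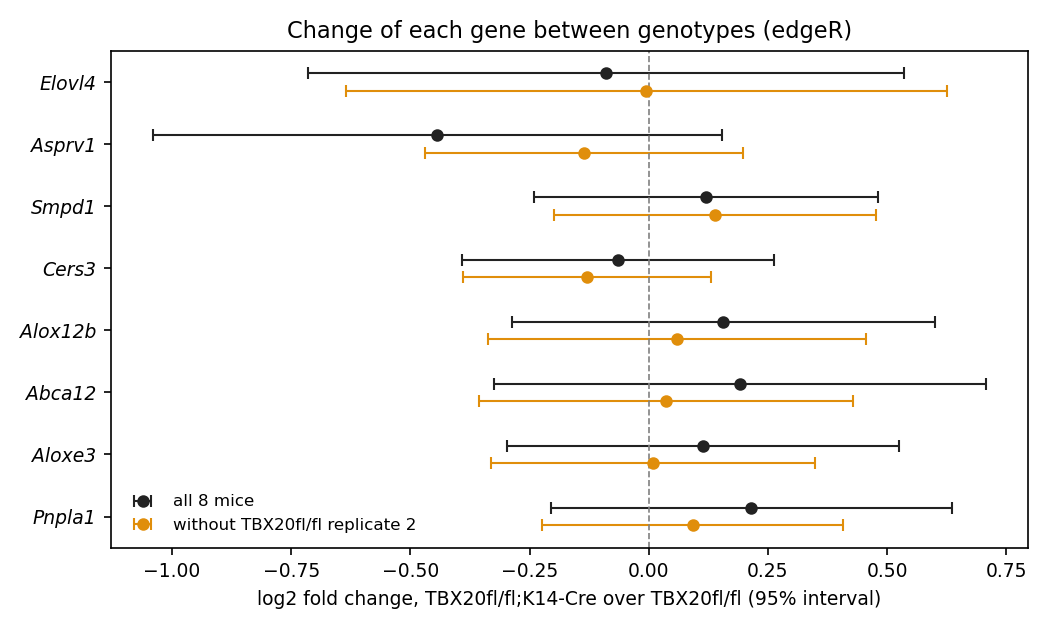
Horizontal axis, log2 fold change of TBX20fl/fl;K14-Cre over TBX20fl/fl with its 95% interval from edgeR, for each of the 8 genes in all 8 mice (black) and without TBX20fl/fl replicate 2 (orange). Every interval includes 0, and without that mouse the estimate for Asprv1 moves from -0.44 to -0.14.

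Elovl4 encodes the elongase that makes the ultra-long fatty acids used for barrier ceramides. The gene is at chr9:83778692-83806305 on the minus strand of GRCm38. Its FPKM was 1347, 681, 912 and 773 in knockout replicates 1 to 4 and 1166, 805, 831 and 722 in control replicates 1 to 4. Replicate 1 was the highest mouse of each genotype, and the groups overlapped almost entirely. Means were 928 ± 295 and 881 ± 196 FPKM (SD, n = 4 each), a ratio of 1.05 (two-sided exact permutation p = 0.743, where 70 assignments allow no p below 0.0286). The fitted log2 fold change was -0.09 ± 0.28 (SE; edgeR adjusted p = 0.862). The FPKM mean and the fitted change thus point opposite ways, both well inside their errors. The FPKM difference of 47.1 turned to -92.4 without knockout replicate 1 and to -5.99 without control replicate 4, and the fitted change turned to 0.04 without knockout replicate 2 and to 0.01 without control replicate 1, and was -0.01 without control replicate 2.

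Cers3, the ceramide synthase that joins these ultra-long acyl chains to the sphingoid base, is at chr7:66733118-66823692 on the plus strand. It measured 15.6, 14.8, 15.6 and 13.0 FPKM in the knockout mice and 16.4, 9.18, 13.4 and 17.1 in the controls. Control replicate 2 was the lowest mouse and control replicate 4 the highest, so the knockout values fell inside the control range. The means were 14.7 ± 1.21 and 14.03 ± 3.61 FPKM (exact permutation p = 0.8). The difference of 0.69 FPKM turned to -0.93 when control replicate 2 was left out. Cers3 had the narrowest interval of the set, with a log2 fold change of -0.06 ± 0.15 (SE; edgeR adjusted p = 0.808) and limits of 0.762-fold and 1.20-fold. Without control replicate 2 this change was -0.13.

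Pnpla1 encodes the transacylase that transfers linoleate onto the hydroxylated ceramide. RefSeq places it at chr17:28858286-28890308 on the plus strand, whereas the deposited table lists it on another scaffold, with a start not on this interval and the same end. Its level was the lowest of the set, at 5.20, 5.98, 6.22 and 4.54 FPKM in the knockout mice and 5.65, 2.31, 4.18 and 4.83 in the controls. Only control replicate 2 lay clearly below the other mice, and the remaining 7 overlapped. Group means were 5.49 ± 0.766 and 4.24 ± 1.42 FPKM (exact permutation p = 0.171), the largest FPKM ratio of the set at 1.29. The fitted log2 fold change was 0.22 ± 0.19 (SE; edgeR adjusted p = 0.552), and 0.09 without control replicate 2. With each mouse's trend with transcript length removed, log2 CPM was 4.085 to 4.526 in knockout and 4.236 to 4.525 in control mice. On that scale control replicate 2 was no longer the lowest. An antisense gene, Pnpla1os, overlaps Pnpla1, and because the strand used in counting was not stated, reads of the pair cannot be told apart. Of its 50-base stretches, 13.4% also occurred in other transcripts, compared with at most 0.461% for the other 7 genes.

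Abca12 encodes the transporter that loads glucosylceramide into lamellar granules. It is the longest gene product of the set and is at chr1:71243090-71414910 on the minus strand. The knockout mice measured 13.7, 9.35, 13.6 and 12.7 FPKM and the controls 13.3, 4.95, 9.15 and 12.6. The ranges overlapped, and control replicate 2 lay far below the other 7. Means were 12.3 ± 2.05 and 10.0 ± 3.83 FPKM (exact permutation p = 0.229). The log2 fold change of 0.19 ± 0.23 (SE; edgeR adjusted p = 0.645) fell to 0.04 when that mouse was left out, and was -0.29 after each mouse's trend with transcript length was removed. The direction for Abca12 was therefore not fixed by these data.

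The lipoxygenases Alox12b and Aloxe3 act in sequence on the ceramide-bound linoleate, the first making a hydroperoxide and the second converting it to an epoxyalcohol. They are neighbours on chromosome 11 in the same orientation, Aloxe3 at chr11:69125417-69149115 and Alox12b at chr11:69157072-69169791, with 7956 bases between them. Alox12b measured 12.0, 9.67, 13.9 and 14.03 FPKM in the knockout mice and 13.2, 6.09, 8.72 and 12.8 in the controls. Aloxe3 measured 11.7, 8.08, 9.63 and 10.6 FPKM in the knockout mice and 11.5, 5.76, 8.17 and 8.96 in the controls. In both genes control replicate 2 was the lowest mouse and the groups overlapped, and control replicate 1 lay among the upper knockout values. Mean levels of Alox12b were 12.4 ± 2.05 and 10.2 ± 3.40 FPKM (exact permutation p = 0.286), with a log2 fold change of 0.16 ± 0.20 (SE; edgeR adjusted p = 0.663). For Aloxe3 they were 9.98 ± 1.51 and 8.61 ± 2.38 FPKM (exact permutation p = 0.371), with a log2 fold change of 0.11 ± 0.18 (SE; edgeR adjusted p = 0.728). Leaving out control replicate 2 moved these changes to 0.06 and 0.01. The ratio of Alox12b to Aloxe3 in FPKM was 1.25 ± 0.178 in knockout and 1.17 ± 0.175 in control mice (exact permutation p = 0.543), so the balance of the pair did not differ beyond its spread either.

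Smpd1 encodes acid sphingomyelinase, which releases ceramide from sphingomyelin. The gene is at chr7:105554360-105558389 on the plus strand. FPKM values were 62.7, 43.4, 52.2 and 50.8 in the knockout mice and 52.6, 34.8, 42.2 and 43.5 in the controls. The groups overlapped, as knockout replicate 2 lay below 2 of the 4 controls. With means of 52.3 ± 7.95 and 43.3 ± 7.33 FPKM the exact permutation p was 0.229, and the log2 fold change was 0.12 ± 0.16 (SE; edgeR adjusted p = 0.680). Smpd1 was the member whose estimate moved least when control replicate 2 was left out, to 0.14. Its highest mouse was knockout replicate 1, at 7.166 log2 CPM. The other knockout mice lay at 6.591 to 6.858 and the controls at 6.625 to 6.917. Without knockout replicate 1 the median log2 fold change of the 8 genes was 0.01.

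Asprv1, the profilaggrin-processing protease, is at chr6:86628174-86629710 on the plus strand and has the shortest transcript of the 8 genes. It had 688, 571, 619 and 544 FPKM in the knockout mice and 688, 902, 686 and 561 in the controls. Here control replicate 2 was the highest mouse, the reverse of its place in 6 of the other 7 genes. The means of 606 ± 63.2 and 709 ± 142 FPKM differed by -104 (exact permutation p = 0.286). In TPM (a level per length scaled to the same sum in every mouse) the corresponding difference was only -15.3 of 1124 ± 131 and 1140 ± 106 (exact permutation p = 0.943). The log2 fold change of -0.44 ± 0.27 (SE; edgeR adjusted p = 0.500) was the largest of the set in size, and without control replicate 2 it was -0.14.

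The levels of the 8 genes spanned a wide range. Averaged over the 8 mice, Elovl4 (905 FPKM, position 113 of 18901 genes) and Asprv1 (657 FPKM, position 161) stood far above the rest. Smpd1 followed at 47.8, then Cers3 at 14.4, Alox12b at 11.3, Abca12 at 11.2, Aloxe3 at 9.29 and Pnpla1 at 4.86 FPKM. Smpd1 was separated from both of its neighbours, since its range met neither that of Asprv1 nor that of Cers3. Elovl4 and Asprv1 overlapped, although Elovl4 was higher in 7 of 8 mice. From Cers3 down to Pnpla1 each gene overlapped the next in range, and Alox12b exceeded Abca12 in only 5 of 8 mice. Pnpla1 was below Aloxe3 within each of the 8 mice. The 6 genes other than Elovl4 and Asprv1 made up 3.56% to 7.42% of the summed FPKM of the set.

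**Figure D2:**
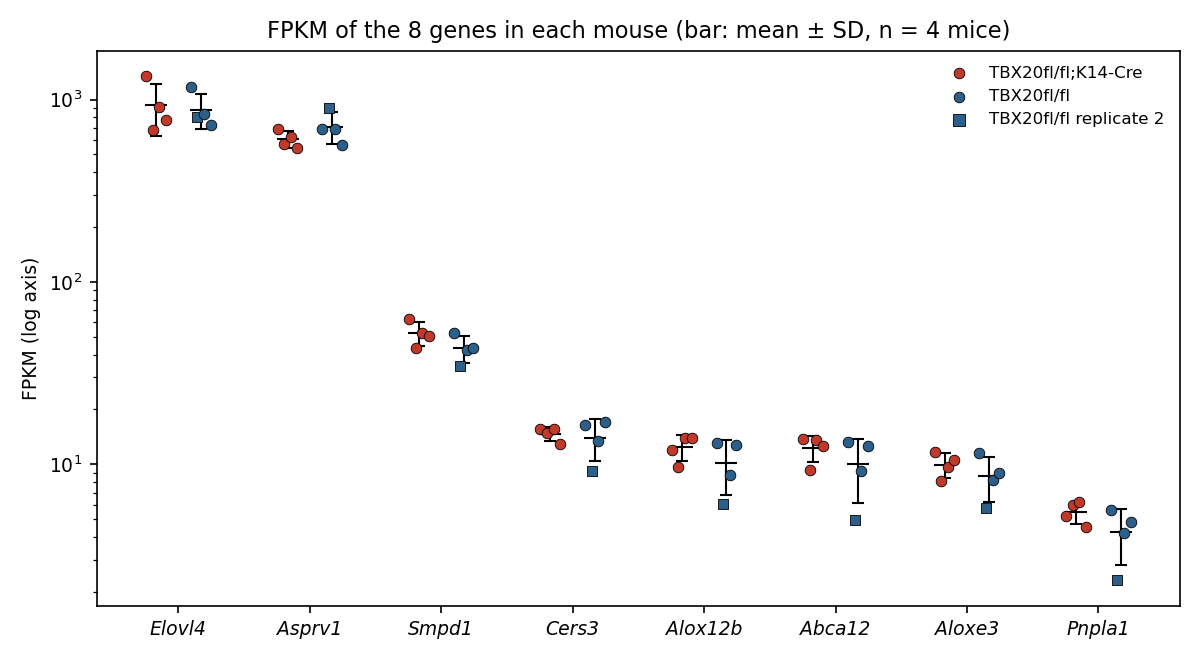
Vertical axis, FPKM on a log scale, for each gene in order of its mean level, with 1 point per mouse (red, TBX20fl/fl;K14-Cre; blue, TBX20fl/fl; square, TBX20fl/fl replicate 2) and bars for the mean ± SD of 4 mice. The genotypes overlap in every gene, and the square is the lowest of 8 points in 6 genes and the highest in Asprv1.

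Control replicate 2 stood apart from the other 7 mice in its scaling. Its library had a TMM scaling factor of 0.735 against 1.01 to 1.07 in the other 7 mice, and its FPKM values summed to 772536 against 521852 to 605508. It was the lowest mouse for 6 of the 8 genes in FPKM and for 4 of 8 in log2 CPM after TMM scaling. Its departure from the median of the other mice followed transcript length in part across the 8 genes, with Asprv1 (1488 bases) 1.08 above and Abca12 (8275 bases) 0.84 below on the log2 CPM scale. Spearman's rho between that departure and transcript length was -0.71 over the 8 genes, which share the library and are not replicates. Per gene, departures of the other 7 mice lay between -0.50 and 0.66. Once the trend with length had been removed from each mouse, rho was 0.38 and the departures of control replicate 2 ran from -0.72 for Alox12b to 0.65 for Abca12, close to the -0.54 to 0.63 of the other 7 mice. Under that correction the set split 4 higher and 4 lower, with a median log2 fold change of -0.06. Without control replicate 2 the median was 0.02, against 0.01 for all genes.

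**Figure D3:**
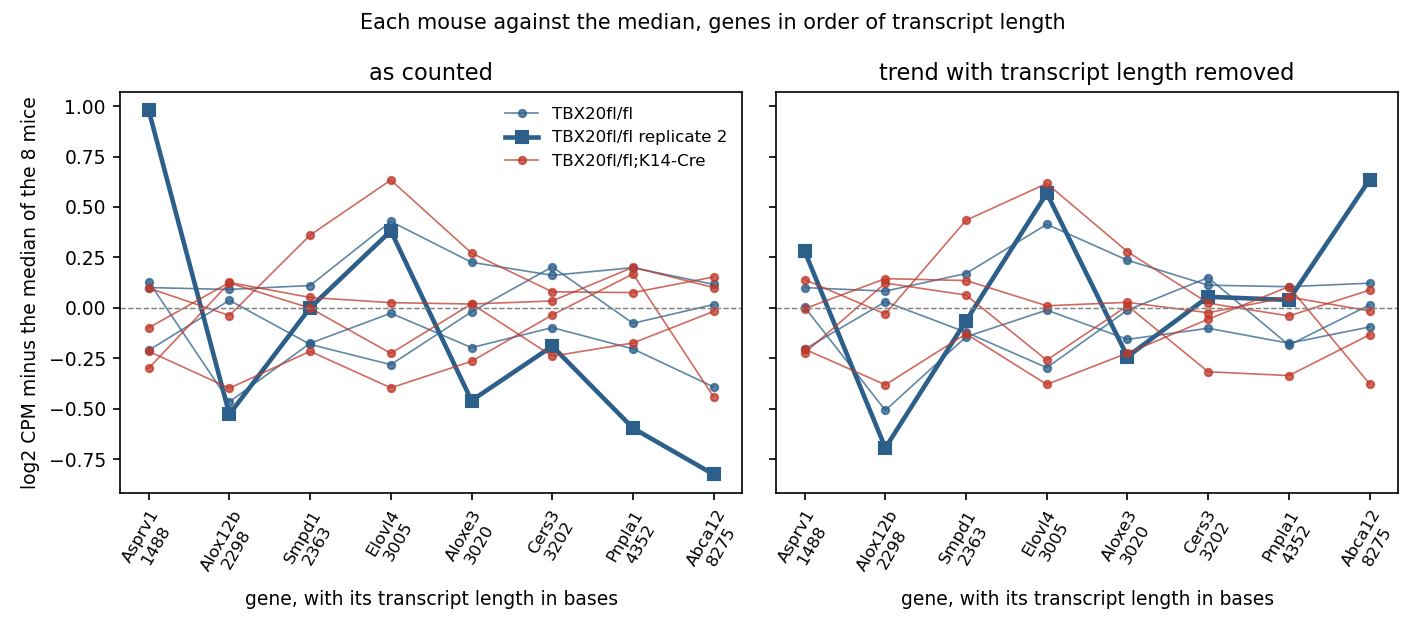
Vertical axis, log2 CPM of each gene minus its median over the 8 mice; horizontal axis, the 8 genes in order of transcript length in bases; lines join the values of 1 mouse (red, TBX20fl/fl;K14-Cre; blue, TBX20fl/fl; thick line with squares, TBX20fl/fl replicate 2). As counted (left), that mouse is highest for Asprv1 and lowest for Alox12b, Aloxe3, Abca12 and Pnpla1. With the trend with transcript length removed (right) it is highest for Abca12 and Asprv1 and lowest for Alox12b and Aloxe3.

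FPKM carried a shift of its own that bears on the direction of these genes. On log2(FPKM + 1), the scale of limma, the median of all 15970 genes was 0.12 higher in knockout mice, and in TPM the median was 0.26 higher, against 0.03 for TMM-scaled counts. Without control replicate 2 the median shift was 0.04 in FPKM and 0.01 in TMM-scaled counts. In TPM the ratios of the knockout to the control mean were 1.41 for Pnpla1 and 1.35 for Smpd1 (exact permutation p = 0.114 each), 1.35 for Abca12, 1.34 for Alox12b, 1.28 for Aloxe3, 1.19 for Elovl4, 1.16 for Cers3 and 0.987 for Asprv1, where each ratio was higher than in FPKM. Control replicate 2 was the lowest mouse in TPM for every one of these genes except Asprv1. For Pnpla1 it held 2.99 TPM, against 6.90 to 10.32 in the other controls. Relative to the shift of the median in FPKM, Alox12b, Aloxe3, Abca12, Pnpla1 and Smpd1 lay above the median gene, and Cers3, Elovl4 and Asprv1 lay below it. That is the same division as in the edgeR signs, and no gene passed the test on either scale. With mice matched by replicate number, the FPKM of Aloxe3, Abca12 and Smpd1 was higher in the knockout mouse in 4 of 4 pairs, and that of Asprv1 was lower in 3 pairs and equal in 1. The exact paired permutation p was 0.125 for Aloxe3, Abca12 and Smpd1, the smallest that 4 pairs allow, and 0.25 for Asprv1. On log2(FPKM + 1), 65.6% of all genes were higher in knockout mice, and the share higher in 4 of 4 pairs was not computed. Slc27a4, Krt10, Lor and Flg2 were also higher in FPKM in 4 of 4 pairs, and Abhd5 and Degs2 were lower in 4 of 4. In TMM-scaled log2 CPM, Abca12 and Smpd1 were higher in 3 of 4 pairs, Aloxe3 was higher in 4 of 4 and Asprv1 lower in 4 of 4. In TPM, Asprv1 was instead higher in 3 of 4 pairs. Knockout replicate 2, the mouse with high hair markers, was the lowest of all mice for Elovl4. When it was left out the changes of the 8 genes ran from -0.41 to 0.31.

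Genes acting around these 8 also showed no call. Of 75 other lipid genes tested (76 were listed), 0 passed the adjusted threshold and 3 had an unadjusted p under 0.05, which is 4% against 8.36% of all genes. By sign, 31 were higher and 44 lower in knockout mice, against 52.5% of all genes being higher. In the group of 13 other acylceramide and envelope genes, 7 were higher and 6 lower, with a median log2 fold change of 0.00, and without control replicate 2 the split was 5 and 8 (median -0.06). Cyp4f39, which hydroxylates the ultra-long fatty acid, was at 0.16 ± 0.26 (SE), and the elongase Elovl1 at -0.16 ± 0.16. Slc27a4, an acyl-CoA synthetase, was at 0.12 ± 0.26, and Abhd5, the partner of Pnpla1, at -0.30 ± 0.18. For Sdr9c7, which oxidises the product of the lipoxygenases, the value was -0.07 ± 0.15. Nipal4, a membrane protein of the same ichthyosis group, was at 0.11 ± 0.21 and the cross-linking enzyme Tgm1 at 0.28 ± 0.20. Ugcg, the glucosylceramide synthase, was at 0.00 ± 0.14. Without control replicate 2 the changes were 0.03 for Cyp4f39, -0.10 for Elovl1, 0.05 for Slc27a4, -0.12 for Abhd5, -0.06 for Nipal4, 0.15 for Tgm1 and -0.06 for Ugcg.

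Sphingoid base and ceramide synthesis had 5 of 16 genes higher, 11 lower and a median of -0.14. The median was -0.06 without control replicate 2, and with the length trend removed as well the split was 8 and 8. Sptlc2 and Sptlc3, catalytic subunits of serine palmitoyltransferase, had log2 fold changes of -0.15 ± 0.14 and -0.37 ± 0.29, or -0.06 and -0.18 without control replicate 2. Degs2, which makes the phytoceramides of the epidermis, was at -0.51 ± 0.24 (edgeR adjusted p = 0.498). Control replicate 2 had the highest mean log2 CPM of this group, at 7.01 against 6.19 to 6.62 in the other 7 mice. In ceramide turnover 10 of 15 genes were higher and 5 lower (median 0.11). With the length trend removed the split was 5 higher and 10 lower (median -0.07), and without control replicate 2 it was 8 and 7 (median 0.04), so no direction held. The epidermal ceramidase gene Acer1 was at -0.26 ± 0.32 and turned to 0.05 without control replicate 2. Fatty acid elongation had 4 of 12 higher and a median of -0.04, and cholesterol synthesis 5 of 19 higher and a median of -0.16, which were -0.01 and -0.09 without that mouse. The 3 genes with an unadjusted p under 0.05, chosen after their values were seen, were Hacd1 of elongation (-0.76) and Pmvk (-0.65) and Idi1 (-0.65) of cholesterol synthesis, each at an edgeR adjusted p of 0.498. Without control replicate 2 these were -0.35, -0.27 and -0.34. Of the 12 epidermal markers 6 were higher and 6 lower, with a median log2 fold change of -0.04 and none past the test. Krt10 of the differentiating layers was at 0.05 ± 0.22, Lor at 0.05 ± 0.18 and Flg2 at 0.32 ± 0.23 (0.22 without control replicate 2), and Krt14 of the basal layer at -0.30 ± 0.19. Krtdap, named after its value was seen as the largest change of that list, was at -0.89 ± 0.35 and at -0.39 without control replicate 2.

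**Figure D4:**
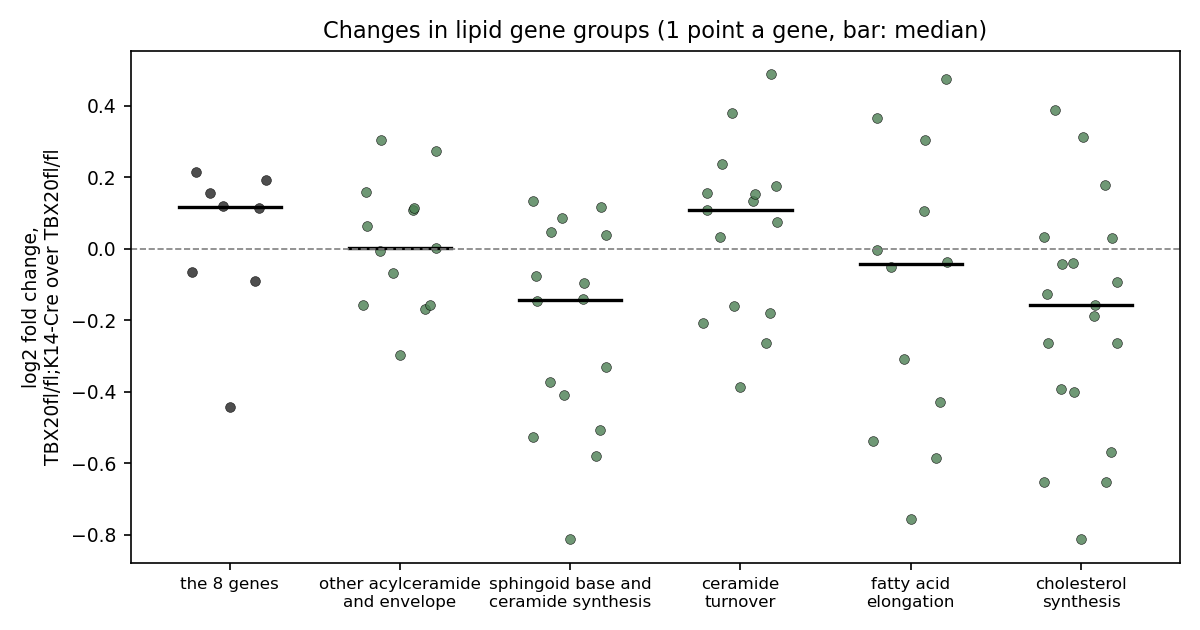
Vertical axis, log2 fold change of TBX20fl/fl;K14-Cre over TBX20fl/fl from edgeR, with 1 point per gene and a bar for the median, for the 8 genes and 5 groups of related lipid genes. The medians lie between -0.16 (cholesterol synthesis) and 0.12 (the 8 genes), and no point passed the adjusted threshold.

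Across the mice the 8 genes moved together only in part. After the genotype means were removed, each gene was correlated over the 8 mice with the mean of the other 7, as a description with no test. In log2 CPM the coefficient was 0.87 for Aloxe3, 0.75 for Abca12, 0.71 for Smpd1, 0.61 for Cers3, 0.60 for Alox12b, 0.53 for Elovl4 and 0.45 for Pnpla1, and it was -0.30 for Asprv1. With the trend in transcript length removed it rose to 0.67 for Asprv1, 0.81 for Elovl4 and 0.86 for Smpd1 and dropped to 0.61 for Aloxe3, 0.51 for Abca12, 0.52 for Cers3, 0.37 for Pnpla1 and 0.12 for Alox12b. Asprv1 was thus the outlying gene on the first scale and Alox12b on the second. Among the 13298 genes that averaged 50 counts or more, those most like the mean of the 8 after the correction were Sdr9c7 (r = 0.999), the retinoic acid binding protein gene Crabp2 (0.964), Ubqln1 (0.961), Mrpl14 (0.959) and the epidermal calmodulin-like gene Calm4 (0.958), all over 8 mice. Sdr9c7 and Crabp2 measured 21.2 ± 2.67 and 131 ± 19.4 FPKM in knockout mice and 20.0 ± 4.00 and 172 ± 44.4 FPKM in control mice (SD, n = 4). Before the correction the 5 most alike were other genes, AA986860, Pla2g4e, Flg2, Gldc and Uckl1 (0.961 to 0.973). After the correction the median coefficient was 0.54 for the 13 other acylceramide and envelope genes and -0.04 for all genes. It was 0.55 for 12 epidermal and 0.53 for 8 skeletal muscle markers and 0.61 for 19 cholesterol genes, against 0.44, 0.49 and 0.13 before the correction. For 6 sebaceous gland markers it was 0.80, against 0.30 before the correction, and for 6 hair inner root sheath markers -0.48, against -0.75 before. These points share the same 8 libraries and their depth and length trend.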

How the data were processed

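The authors sequenced 1 library per mouse from the injected cheek (4 mice of each genotype), filtered reads with SOAPnuke and aligned them with HISAT. The counting program and its use of strand are not given in the sources used here. The table deposited by the authors holds estimated counts (expected counts) without normalization, beside FPKM and TPM values per gene that the authors normalized. Of the counts above 0, 69.0% were not whole, and they were rounded. Deposited columns with 17 comparisons by the authors, 40 group means and 8 columns of normalized counts were not used.

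After removal of genes with fewer than 10 counts in total, counts were scaled by TMM and compared by quasi-likelihood in edgeR 4.0.16 (R 4.3.3), with Benjamini-Hochberg adjustment over all 17124 genes and a threshold of 0.05. FPKM was compared with limma 3.58.1 on log2(FPKM + 1) where the mean FPKM reached 0.1, and by two-sided exact permutation over 70 assignments. DESeq2 1.42.0, other filters and scalings, an epidermal covariate, a length trend, a replicate block and leaving out each mouse were alternatives, and the length trend without control replicate 2 was chosen after seeing the data. Transcript lengths were derived from the counts and FPKM. Deviations of same-numbered mice correlated at 0.405, 0.319, 0.331 and 0.160, all over 0.1, and the numbers were therefore used as pairs in that alternative. Those of differently numbered mice ran from -0.518 to 0.426, a range that holds all of these values. The correlations therefore do not show that the numbers mark true pairs. The number comes only from the labels. Scripts were tested on simulated data. Coordinates are on GRCm38.

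The 8 genes and the lists were chosen with earlier results of these data known. Other genes were named by role and not by how they moved, with the 5 genes most like the set after length correction. Hacd1, Pmvk, Idi1 and Krtdap were added after their values were seen. Some results under this rule are not reported here. Summaries used Python 3.11.15.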

Additional observations from a re-analysis of the deposited data

Results flagged for a closer look

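Among 56 groups of 4 mice examined, 2 held a mouse far from the others, where chance alone flags about 1 in 20 groups, or 2.8 here. The Ugcg level of control replicate 2 was 14.5 FPKM, against 24.6 to 24.9 in the other control mice. In TMM-scaled log2 CPM it was 6.18 against 6.44 to 6.50. With the length trend removed it was 6.61 against 6.37 to 6.53, the highest of the control mice. The TMM scaling factor of the same mouse was 0.735, against 1.01 to 1.04 in the other control mice. Without this mouse the log2 fold change of Ugcg moved from 0.00 to -0.06.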

How the results depend on the processing

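None of the 8 genes passed the threshold in any alternative. The smallest adjusted p of any of them was 0.354 and the smallest permutation p 0.0857. Of 144 alternative log2 fold changes 7 changed sign, and of 88 FPKM differences 3 did. edgeR and limma called 0 genes in every alternative run, and DESeq2 called 10. The replicate block alone changed no call (0 genes, smallest adjusted p 0.405). The causes of the changes of sign below were not tested, and with 4 mice per group the intervals above set what could be resolved.

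With the length trend removed, the log2 fold change turned to -0.29 for Abca12, 0.014 for Elovl1, -0.085 for Slc27a4, -0.15 for Ugcg and -0.19 for Flg2. The replicate block in addition gave -0.27 for Abca12, -0.0018 for Pnpla1, 0.0052 for Elovl1, -0.079 for Slc27a4, -0.152 for Ugcg and -0.14 for Flg2. The trend removed without control replicate 2 gave -0.11 for Abca12, -0.073 for Nipal4, -0.10 for Ugcg and 0.081 for Acer1. The epidermal covariate gave 0.030 for Elovl4 and -0.021 for Ugcg. Ugcg was also -0.011 with DESeq2 size factors, -0.0011 with a minimum of 50 counts and -0.012 with DESeq2.

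Leaving out 1 mouse at a time, genes that changed sign ranged from -0.34 to 0.036 (Elovl4), -0.067 to 0.36 (Slc27a4), -0.15 to 0.0075 (Sdr9c7), -0.057 to 0.23 (Nipal4), -0.062 to 0.045 (Ugcg), -0.46 to 0.052 (Acer1), -0.037 to 0.18 (Krt10) and -0.037 to 0.13 (Lor) in log2 fold change. In FPKM the difference ranged from -0.93 to 1.72 for Cers3 and from -92.4 to 142 for Elovl4.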
